A study of Saccharomyces cerevisiae with 12 samples.

Results

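The response of the wine yeast EC1118 to growth at 15 °C was described from 6 of the 12 arrays of a study of Saccharomyces cerevisiae, the 3 arrays titled EC1118 at 15 °C and the 3 titled EC1118 at 30 °C. EC1118 is an industrial strain used for wine fermentation, and the other 6 arrays held the laboratory strain CEN.PK113-7D at the same temperatures. All cultures, at both temperatures, were anaerobic, nitrogen-limited chemostats at steady state with a dilution rate of 0.05 per h, fed a minimal medium with the factors that yeast needs without oxygen. Each group held 3 cultures named as biological triplicates, 1 Affymetrix Yeast Genome 2.0 array each, and 5763 probe sets for yeast transcripts were analysed on every array.

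In a chemostat at steady state the feed rate sets the growth rate, which was thus the same at both temperatures. Cold slows enzymes, stiffens membranes and strengthens base pairing in RNA, and yeast is known to answer a cold shift with genes for ribosome assembly, membrane lipids and cell wall mannoproteins. Batch cultures that cool also slow down, and slow growth by itself lowers ribosome genes and raises stress and storage genes in yeast. The comparison asked which transcripts of the wine strain differ between the temperatures at the same growth rate. Whether the cultures also differed in residual nutrients or biomass was not tested.

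The arrays were first set against their labels. Genes that only haploid cells of mating type a express were low in EC1118, with a summed median-scaled intensity over 7 genes of 548.6 to 782 at 15 °C and 461 to 479 at 30 °C, against 14842 to 21360.3 and 20139.7 to 21653 in CEN.PK113-7D, a haploid a strain. EC1118 is known as a diploid. Summed over 10 haploid-specific pheromone signalling genes, intensity was 681 to 790 at 15 °C and 831 to 856 at 30 °C in EC1118. The CEN.PK113-7D arrays had 5199 to 7234 and 7256 to 7755. Over 5 alpha-specific genes EC1118 had 366 to 548 and 748 to 807, and CEN.PK113-7D had 1295 to 5210 and 759 to 880. The alpha-specific sums thus overlapped between the strains at 30 °C and were higher in CEN.PK113-7D at 15 °C. Mannoproteins of anaerobic cells were abundant: TIR1 had 6227, 6011 and 4634 at 15 °C and 6064, 5010.4 and 5915 at 30 °C, and DAN1 had 5148, 4761 and 3135 at 15 °C and 4356, 2426 and 3844 at 30 °C. Before centring, array medians were 331 to 358 at 15 °C and 360.0 to 374 at 30 °C, and between 2.38% and 2.79% of an EC1118 array's probe sets lay at the floor of 10. Replicate 3 at 15 °C stood apart in its control probe sets, with a geometric mean over 9 hybridisation controls of 328 against 855 to 1124 on the other 5 EC1118 arrays and a 25S rRNA signal of 259 against 2893 and 2945 on the other 15 °C arrays and 5175 to 5694 at 30 °C. Without this array 1651 probe sets were higher and 1365 lower, and 645 were called for the strain difference. The other 2 arrays with low hybridisation controls, both of CEN.PK113-7D, were left out together with it in 1 alternative fit.

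In EC1118, 1747 of 5763 probe sets (30.3%) were higher at 15 °C and 1441 (25%) were lower, which is 55.3% called at an adjusted p under 0.05 (limma, Benjamini-Hochberg over all probe sets). Most changes were small. Those called and at least 2-fold were 196 higher (3.40%) and 228 lower (3.96%), and the 3 values at 15 °C did not overlap the 3 at 30 °C for 65.8% of probe sets. The split depended on the scaling, since every array had been centred on its own median: without centring 1392 were higher and 1714 lower. The median log2 change over all probe sets was 0.06 with centring and -0.03 without it. An array reads the pooled RNA of a culture, so a change in the share of cells that express a gene and a change in RNA per cell cannot be told apart.

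The genes that rose most were of several kinds. Genes named for the largest rises and falls were picked among probe sets whose temperatures did not overlap, so that trait is no further support for them. Members of gene lists were named for the smallest adjusted p, which favours groups that do not overlap, so it is no further support for these either. Values are median-scaled intensities in arbitrary units, in the order of replicates 1, 2 and 3, and log2 changes are 15 °C over 30 °C with the standard error (SE) of the fit. AZR1, a transporter of the plasma membrane known for azole and acetic acid resistance, had an intensity of 192, 320.4 and 695 at 15 °C and stood at the floor of 10 in all 3 cultures at 30 °C, at least 36.3-fold higher (log2 change 5.18 ± 0.50 SE, adjusted p = 1.44e-05). EFM6, which methylates elongation factor 1A, had 638, 549.6 and 374 at 15 °C and 48.6, 31 and 45.8 at 30 °C (log2 change 3.63 ± 0.28 SE, adjusted p = 4.89e-06). SFG1, a regulator of superficial pseudohyphal growth, had 1229.5, 1082 and 977 at 15 °C and 150.0, 85.3 and 119.6 at 30 °C (log2 change 3.24 ± 0.25 SE, adjusted p = 4.37e-06). In all 3 genes the lowest 15 °C array was far above the highest 30 °C array. HUG1, a small protein that restrains ribonucleotide reductase and is known from the DNA damage response, had 3865, 2664 and 1539 at 15 °C and 646, 121 and 337 at 30 °C (log2 change 3.08 ± 0.56 SE, adjusted p = 0.000869). Its groups did not overlap, but each spread more than 2-fold, and without replicate 2 at 30 °C the log2 change was 2.43. PHO5, the secreted acid phosphatase, had 1150.0, 727 and 377 at 15 °C and 109, 106 and 91.2 at 30 °C (log2 change 2.74 ± 0.29 SE, adjusted p = 2.65e-05). ARE2, which esterifies sterols for storage, had 299.8, 349 and 408 at 15 °C and 44.9, 69.5 and 69.5 at 30 °C (log2 change 2.54 ± 0.41 SE, adjusted p = 0.00037). Neither overlapped between temperatures, and the 15 °C arrays of PHO5 were spread widely.

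SNZ1, an enzyme of vitamin B6 synthesis, had 1159, 1202 and 883 at 15 °C and 239, 296 and 242 at 30 °C (log2 change 2.06 ± 0.17 SE, adjusted p = 5.83e-06). PDR12, the pump that exports weak organic acids, had 2058, 2156 and 2334 at 15 °C and 305, 691 and 410.3 at 30 °C (log2 change 2.30 ± 0.29 SE, adjusted p = 7.58e-05). SPS4, named for its expression in sporulation, had 444, 453 and 497 at 15 °C and 102, 78.5 and 86.9 at 30 °C (log2 change 2.39 ± 0.14 SE, adjusted p = 1.65e-06). In each of them every 15 °C array was at least 2-fold above every 30 °C array. The other 6 of the 15 largest rises belonged to genes of little known function: YAR068W (2.51), YNR066C (2.36), YOL014W (2.32), AIM20 (2.15), YJL047C-A (2.10) and YLR162W (2.08), each given as its log2 change.

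The genes that fell most were led by membrane, transport and stress genes. AQY1, a water channel known from spores and freeze tolerance, had 36.4, 95.6 and 35.5 at 15 °C and 478, 2129 and 1230.2 at 30 °C (log2 change -4.43 ± 0.57 SE, adjusted p = 9.73e-05). YRO2, a membrane protein of unclear role that weak acids induce, had 70.4, 117 and 63.6 at 15 °C and 837, 1873 and 1131 at 30 °C (log2 change -3.91 ± 0.30 SE, adjusted p = 4.78e-06). RSB1, which moves sphingoid bases out of the membrane, had 35.6, 56.1 and 44 at 15 °C and 347, 529 and 607 at 30 °C (log2 change -3.44 ± 0.27 SE, adjusted p = 5.37e-06). No array at 15 °C reached the lowest array at 30 °C in any of the 3. Replicate 1 at 30 °C was the lowest of its group for AQY1, and the log2 change without it was -5.02. GIT1, the transporter of glycerophosphoinositol, had 79.7, 96.5 and 74.2 at 15 °C and 659, 852 and 679 at 30 °C (log2 change -3.13 ± 0.13 SE, adjusted p = 1.85e-07). The urea permease DUR3 had 302, 362 and 362 at 15 °C and 2194, 2586 and 2141 at 30 °C (log2 change -2.75 ± 0.11 SE, adjusted p = 1.85e-07). The allantoin permease DAL4 had 72.8, 87.4 and 85.9 at 15 °C and 351, 649.6 and 473 at 30 °C (log2 change -2.54 ± 0.20 SE, adjusted p = 5.43e-06). In each transporter the highest 15 °C array was at least 3-fold below the lowest 30 °C array. FAR1, which arrests the cell cycle of haploid cells in pheromone, had 10.3, 12 and 11.2 at 15 °C, 1 of these arrays at the floor, and 72.4, 87.1 and 70.6 at 30 °C, at least 6.87-fold lower. The small open reading frame YMR175W-A stood at the floor in all 3 cultures at 15 °C and had 45.7, 132 and 55.8 at 30 °C, at least 6.79-fold lower.

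Several of the large falls varied between the 30 °C cultures. HXT5, a hexose transporter of slow growing cells, had 43.9, 66 and 34 at 15 °C and 118, 1208 and 407 at 30 °C (log2 change -3.07 ± 0.62 SE, adjusted p = 0.00158). PMA2, the minor proton pump of the plasma membrane, had 97.6, 166 and 55.9 at 15 °C and 285, 1940.0 and 806 at 30 °C (log2 change -2.98 ± 0.57 SE, adjusted p = 0.00117). SIP18, a protein that protects dried cells, had 159, 422 and 135 at 15 °C and 435, 3223 and 1524 at 30 °C (log2 change -2.63 ± 0.61 SE, adjusted p = 0.00386). In all 3 replicate 2 was the highest and replicate 1 the lowest at 30 °C. Without replicate 1 at 30 °C the log2 changes were -3.92 for HXT5, -3.69 for PMA2 and -3.41 for SIP18, and without replicate 2 they were -2.25, -2.31 and -1.97 in that order. The stress genes DDR2 (-2.52) and YNL195C (-2.73) had the same order of 30 °C arrays. YER053C-A (-2.70) did too, and its call was lost when replicate 1 at 15 °C, 2 at 30 °C or 3 at 30 °C was left out (adjusted p = 0.101, 0.109 and 0.0644). MOH1, of unknown function, was steadier, with 118, 151 and 153 at 15 °C and 795, 903 and 864 at 30 °C (log2 change -2.61 ± 0.20 SE, adjusted p = 3.95e-06).

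**Figure D1:**
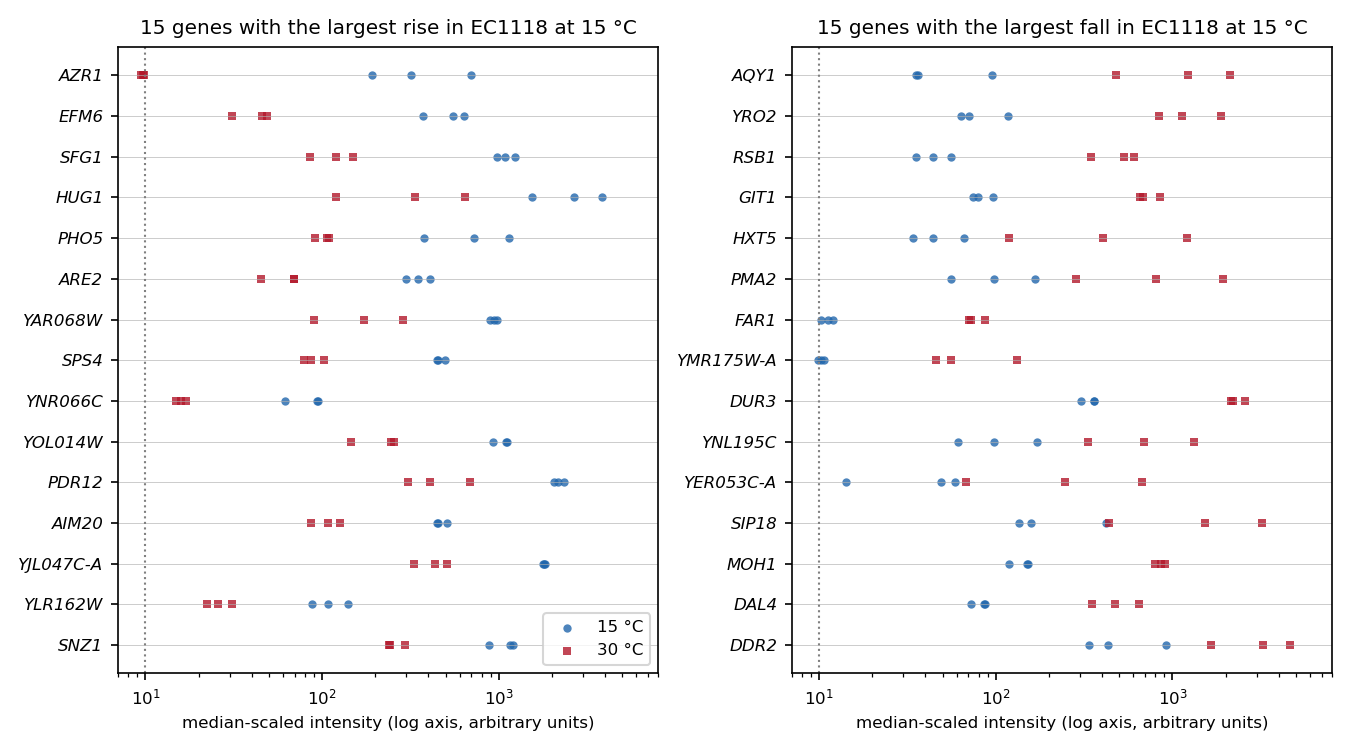
Median-scaled intensity (log axis, arbitrary units) of the 15 genes with the largest rise (left) and the 15 with the largest fall (right) at 15 °C in EC1118, 1 point per array, circles for 15 °C and squares for 30 °C, with the floor of 10 dotted. The temperatures do not overlap in any of them, as the choice of genes required, and the 30 °C arrays of AQY1, HXT5, PMA2 and SIP18 are spread widely.

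The change in EC1118 went with the length of the gene. The 5498 probe sets with a named gene were ranked by coding length and split into 4 groups of nearly equal size. The longest group, 1893 to 14733 bases, had a median log2 change of -0.26, with 163 higher and 680 lower. The shortest group, 51 to 753 bases, had a median of 0.13, with 491 higher and 209 lower, and the groups between had medians of 0.20 and 0.07. Spearman's rho between coding length and log2 change was -0.29 across these probe sets, which share the same arrays and are no independent replicates, and -0.28 in CEN.PK113-7D. Of 188 probe sets for genes longer than 4000 bases, 126 were lower and 7 higher. The longest group was below the shortest at each of 3 levels of mean intensity too. Their medians were -0.22 and 0.14 among dim probe sets, -0.30 and 0.18 among those of middle intensity and -0.23 and 0.10 among bright ones. All 3 arrays of a temperature showed it.

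The array's own controls for RNA integrity also moved with temperature. For 7 yeast genes the array carries probe sets near the 5′ end and near the 3′ end of the transcript, and the mean log2 ratio of 5′ over 3′ signal was -0.28, -0.30 and -0.36 at 15 °C and -0.73, -0.72 and -0.74 at 30 °C. The ratio was higher at 15 °C in 7 of 7 genes, without overlap in 6. An exact permutation test of 3 against 3 cannot give a p below 0.1, and no other test of this ratio was run. For WBP1, a subunit of oligosaccharyltransferase, the ratio was 0.606, 0.588 and 0.542 at 15 °C and 0.361, 0.372 and 0.374 at 30 °C. The part of transcript integrity in the changes reported here was not tested. A fit that removed the trend with coding length from each array, chosen after seeing the data, called 1513 probe sets higher and 1342 lower. Counts of gene lists printed below that moved by over 1.5 times in that fit are given with both values.

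**Figure D2:**
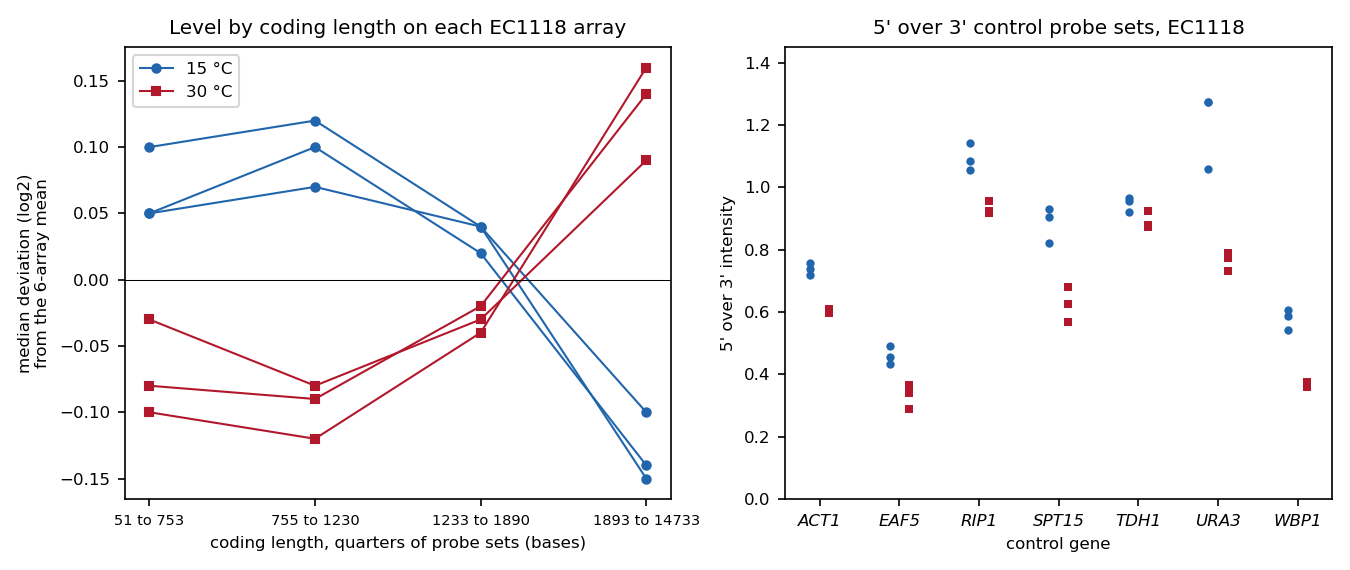
Left, median deviation of log2 intensity from the mean of the 6 EC1118 arrays in each of 4 groups of coding length (bases), 1 line per array, circles for 15 °C and squares for 30 °C. The longest group lies at -0.10 to -0.15 at 15 °C and at 0.09 to 0.16 at 30 °C, and the shortest at 0.05 to 0.10 and at -0.10 to -0.03. Right, ratio of 5′ over 3′ intensity of 7 control genes on each EC1118 array, with 15 °C left of 30 °C for each gene.

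Genes that assemble ribosomes and modify their RNA were mostly higher at 15 °C. Lists of members are given with the share of all probe sets in mind, 30.3% higher and 25% lower. Of 68 factors that assemble the large subunit, 56 rose and 0 fell (median log2 change 0.66), and of 65 for the small subunit 49 rose and 1 fell (median 0.53). NOP58, a core protein of the particles that guide rRNA methylation, had 1552, 1301 and 1312 at 15 °C and 642, 563 and 534 at 30 °C (log2 change 1.26 ± 0.10 SE, adjusted p = 4.04e-06). HAS1, an RNA helicase of both subunit pathways, had 580.1, 566 and 505 at 15 °C and 260.3, 214 and 240.3 at 30 °C (log2 change 1.21 ± 0.09 SE, adjusted p = 3.95e-06). Each rose by over 2-fold, and the groups did not overlap, which naming by the smallest adjusted p favours. Enzymes that modify tRNA and rRNA in the nucleus had 19 of 21 members higher and 0 lower (median 0.63). PUS7, a pseudouridine synthase, had 959.8, 838 and 817 at 15 °C and 324, 270.2 and 255 at 30 °C (log2 change 1.63 ± 0.14 SE, adjusted p = 7.35e-06). The tRNA methyltransferase TRM5 (1.12) and the dihydrouridine synthase DUS3 (1.15) rose by over 1 on the log2 scale. RNA polymerases I and III, which make rRNA and tRNA, had 17 of 37 members higher and 6 lower (median 0.27). With the length trend removed 20 were higher and 2 lower. Aminoacyl-tRNA synthetases rose in 8 of 20 cases with a smaller median (0.18), 4 of them without replicate 1 at 15 °C, 5 without replicate 2 at 30 °C and 4 without centring.

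Ribosomal proteins themselves moved less and with the length trend. Of 128 cytosolic ones 82 rose and 1 fell (median 0.21), 51 without replicate 2 at 15 °C and 52 without replicate 2 at 30 °C. With the length trend removed 30 rose, with a median of 0.06. The largest was RPL9A of the large subunit, with 1928, 2018 and 1736 at 15 °C and 973, 762 and 897 at 30 °C (log2 change 1.11 ± 0.10 SE, adjusted p = 7.35e-06), well above the rest of the list's median. Mitochondrial ribosomal proteins had 28 of 74 members higher and 3 lower, 18 and 8 without centring, and 17 and 13 with the trend removed. Their coding length was short, a median of 716 bases, against 1605 for small-subunit assembly factors. Of those factors 55 rose and 0 fell in that fit.

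Genes of nucleotide synthesis were mostly higher. Of 40 purine and pyrimidine genes 23 rose and 5 fell (median 0.44). IMD4, an inosine monophosphate dehydrogenase of GTP synthesis, had 1284, 1038 and 979.9 at 15 °C and 379, 262 and 316 at 30 °C (log2 change 1.79 ± 0.13 SE, adjusted p = 3.87e-06). ADE4, the first enzyme of purine synthesis, had 1049.7, 1074 and 1015 at 15 °C and 479.8, 407 and 417 at 30 °C (log2 change 1.27 ± 0.09 SE, adjusted p = 3.09e-06). URA7, the main CTP synthase, had 953, 878 and 973 at 15 °C and 438, 373 and 424 at 30 °C (log2 change 1.19 ± 0.08 SE, adjusted p = 2.85e-06). All 15 °C arrays of these enzymes lay above all 30 °C arrays. The uridine permease FUI1, which brings a pyrimidine in from outside, went the other way, with 255, 273 and 338 at 15 °C and 863, 816 and 917 at 30 °C (log2 change -1.59 ± 0.12 SE, adjusted p = 3.87e-06).

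Vitamin and cofactor genes had 16 of 32 members higher and 4 lower. BNA4 of the kynurenine route to NAD had 377, 444 and 384 at 15 °C and 202, 199.9 and 191 at 30 °C (log2 change 1.02 ± 0.09 SE, adjusted p = 7.72e-06). The biotin genes BIO2 (0.90) and BIO4 (0.83) rose as well. Amino acid synthesis outside the sulfur branch had 42 of 66 members higher and 5 lower (median 0.34), 3 lower without replicate 1 at 15 °C or replicate 3 at 30 °C. ARO8, an aromatic aminotransferase, had 2133, 2062 and 2203 at 15 °C and 1145, 986 and 1182 at 30 °C (log2 change 0.95 ± 0.08 SE, adjusted p = 5.43e-06). The serine enzymes SER1 (0.94) and SER2 (0.82) rose too. In the sulfur branch 15 of 33 rose and 5 fell: SAM4, which recycles S-adenosylmethionine into methionine, rose (1.23 ± 0.11 SE), and MET2, which makes the acceptor of sulfide, fell (-0.91 ± 0.08 SE).

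**Figure D3:**
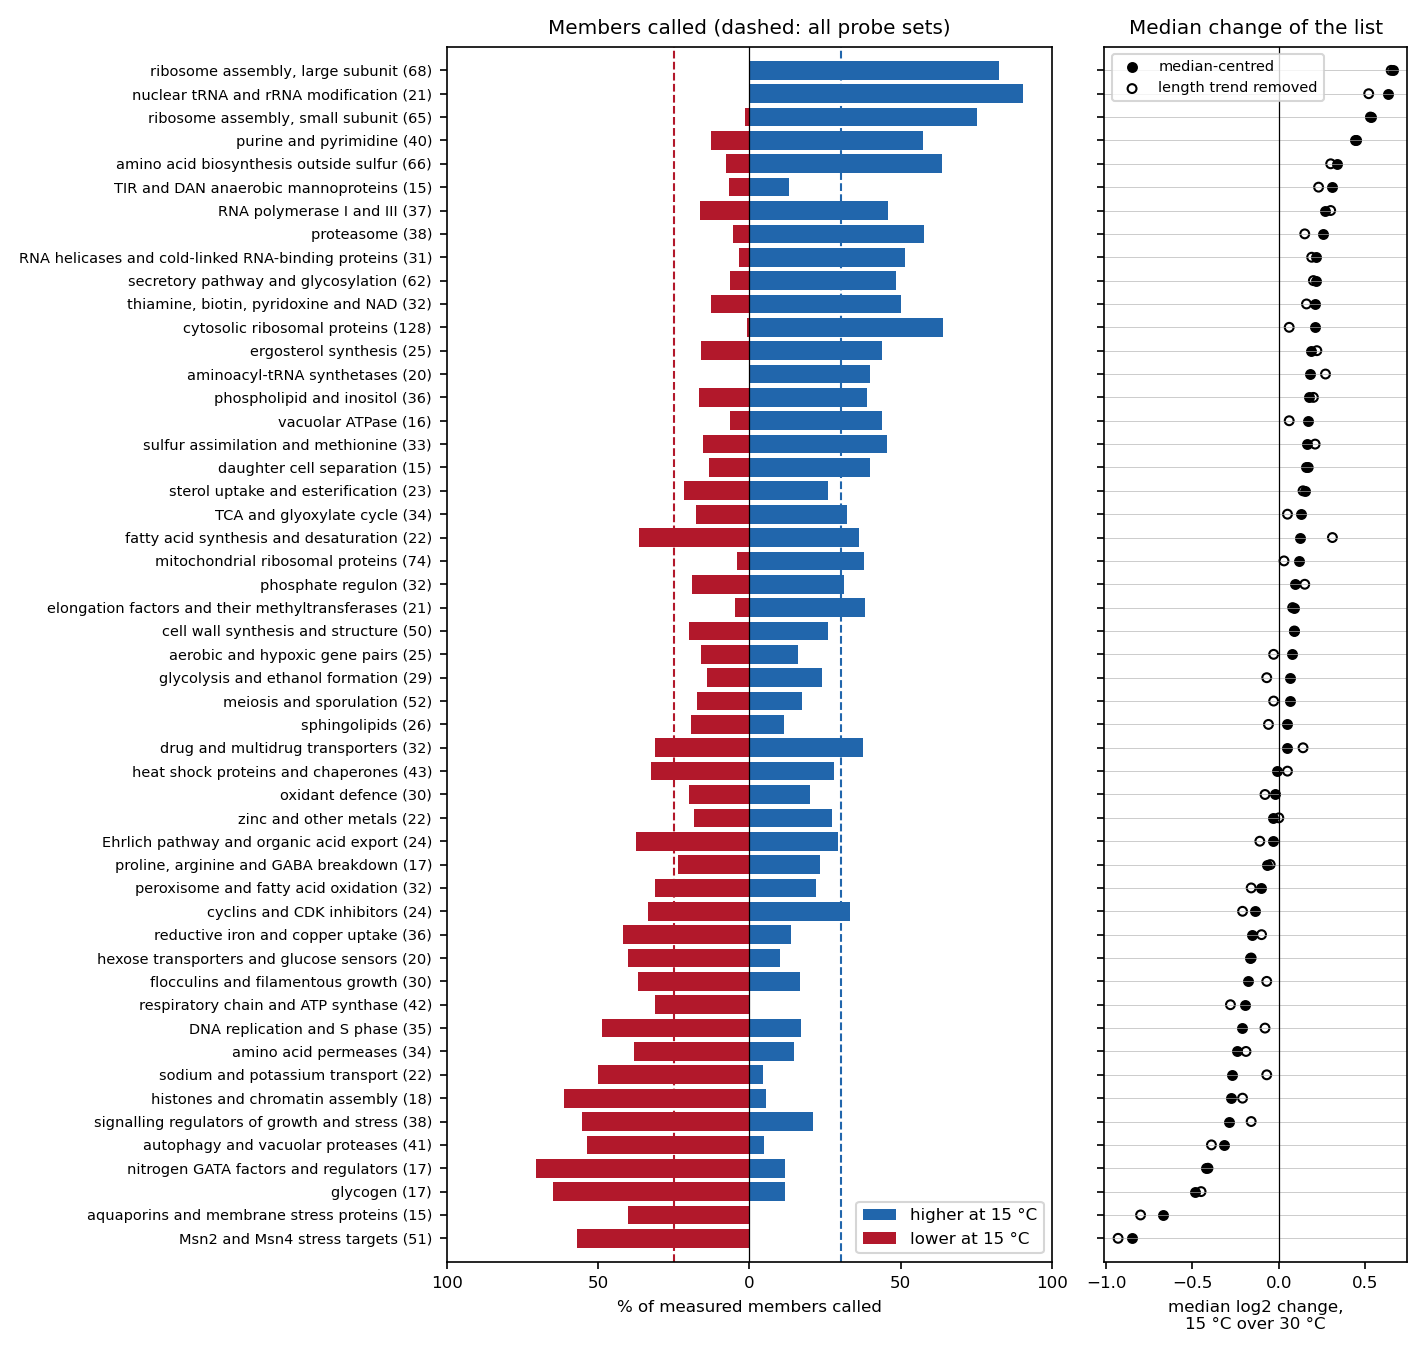
Left, percent of measured members (number in brackets) of each gene list that were higher (right of 0) or lower (left of 0) at 15 °C in EC1118, with the shares over all probe sets, 30.3% and 25%, dashed. Right, median log2 change of each list with median-centred arrays (filled) and with the trend with coding length removed (open), in which cytosolic ribosomal proteins move to 0.06 and DNA replication to -0.08.

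Central carbon metabolism changed at single enzymes. The alcohol dehydrogenase ADH5 had 1974, 1738 and 1678 at 15 °C and 656, 463 and 577 at 30 °C (log2 change 1.68 ± 0.15 SE, adjusted p = 1.03e-05). The alcohol dehydrogenase genes ADH4 (1.13) and ADH6 (0.77) rose too. GPM2, a minor homolog of phosphoglycerate mutase, had 769, 715 and 752 at 15 °C and 1616, 1428 and 1437 at 30 °C (log2 change -1.0 ± 0.08 SE, adjusted p = 6.26e-06). Over the list of glycolysis and ethanol formation 7 of 29 rose and 4 fell. The falls were 7 without centring and 8 with quantile normalization. GPP1, a phosphatase that makes glycerol, had 2958, 2677 and 3244 at 15 °C and 1736, 1941 and 1720.1 at 30 °C (log2 change 0.72 ± 0.08 SE, adjusted p = 3.64e-05). Of the hexose transporters and glucose sensors 8 of 20 fell and 2 rose. The high-affinity carrier HXT7 had 704, 1028 and 817 at 15 °C and 2925, 3139 and 3072 at 30 °C (log2 change -1.86 ± 0.28 SE, adjusted p = 0.000236), the co-repressor MTH1 fell (-1.30 ± 0.15 SE), and the glucose sensors SNF3 (-0.88) and RGT2 (-0.73) fell. The probe set of HXT7 is 1 of 4 in this list marked as shared and may read other genes too. Another 3 members stood at the floor on all EC1118 arrays. HXT1, the low-affinity carrier, measured -0.92 ± 0.31 SE (adjusted p = 0.0274). That call was lost when replicate 1 or 3 at 15 °C or replicate 2 or 3 at 30 °C was left out (adjusted p = 0.0588, 0.0733, 0.0733 and 0.0632).

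Membrane lipid genes changed in both directions. Ergosterol synthesis had 11 of 25 members higher and 4 lower, 7 rises without replicate 2 at 30 °C and 2 falls without replicate 2 or 3 at 15 °C or replicate 1 or 3 at 30 °C. Among the named rises, ERG20, which makes farnesyl pyrophosphate, had 1988, 1985 and 1974 at 15 °C and 1122, 936 and 1125 at 30 °C (log2 change 0.91 ± 0.09 SE, adjusted p = 1.3e-05). ERG10 (0.47) and ERG13 (0.61) of the mevalonate pathway rose. The named falls lay late: the desaturases ERG5 (-0.60) and ERG3 (-0.42) and the demethylase ERG11 (-0.20 ± 0.07 SE, adjusted p = 0.0277), a call lost in 7 of 16 alternatives. For fatty acids 8 of 22 rose and 8 fell, 5 without replicate 2 at 30 °C, and with the length trend removed 11 rose and 3 fell. The elongase ELO2 rose (0.93 ± 0.09 SE), SPT23, an activator of the desaturase gene, fell (-1.06 ± 0.13 SE), and the desaturase gene OLE1 had 3358, 3413 and 2783 at 15 °C and 4329, 4718 and 4690.1 at 30 °C (log2 change -0.53 ± 0.10 SE, adjusted p = 0.000947). INO1, which makes inositol phosphate for inositol lipids, had 2158, 2161 and 1831 at 15 °C and 716, 300.5 and 710.3 at 30 °C (log2 change 1.94 ± 0.27 SE, adjusted p = 0.000144). In the list of phospholipid and inositol genes 14 of 36 rose and 6 fell. The phosphatidylserine enzymes PSD1 (0.96) and CHO1 (0.64) rose. PRY1, a secreted sterol-binding protein, had 2568, 2374 and 2265 at 15 °C and 5147, 4774 and 5237 at 30 °C (log2 change -1.07 ± 0.08 SE, adjusted p = 4.86e-06).

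Secretory pathway and glycosylation genes had 30 of 62 members higher and 4 lower. ALG5, ALG6 and ALG12, which build the sugar chain that is moved to proteins in the endoplasmic reticulum, rose by 0.97, 0.75 and 0.81 on the log2 scale, while KTR2, a Golgi mannosyltransferase, fell (-1.69 ± 0.17 SE). Cell wall genes were no more often called than all probe sets, with 13 of 50 higher and 10 lower. UTR2, an enzyme that links chitin to glucan, had 1297, 1202 and 1163 at 15 °C and 463, 401 and 549 at 30 °C (log2 change 1.38 ± 0.10 SE, adjusted p = 3.51e-06). The wall stress sensor WSC2 rose (0.91 ± 0.08 SE). Among 15 anaerobic mannoproteins 2 rose and 1 fell, and single arrays decided that count. It was 7 higher and 1 lower without replicate 3 at 15 °C, 0 higher without replicate 2 at 30 °C, and 1 higher without replicate 1 or 2 at 15 °C or replicate 3 at 30 °C. With the 3 arrays of low hybridisation controls left out, 7 were higher and the list's median log2 change was 0.92, against 0.31 with all arrays. With the length trend removed 1 was higher and 1 lower. TIP1, known from cold shock, had 3366, 3975 and 4005 at 15 °C and 4810.5, 5116 and 5244 at 30 °C (log2 change -0.42 ± 0.08 SE, adjusted p = 0.00139). TIR1, given above, measured -0.02 ± 0.20 SE (adjusted p = 0.948). PAU4 had 1129, 243 and 214 at 15 °C and 162, 89 and 124 at 30 °C (log2 change 1.68 ± 0.50 SE, adjusted p = 0.0147). Replicate 1 at 15 °C set its size, with a log2 change of 0.91 without that array, and the call was lost without replicate 2 at 30 °C (adjusted p = 0.0566). PAU genes are near-identical, and their probe sets may read several copies. TIR2 passed with all arrays (1.44 ± 0.54 SE, adjusted p = 0.0418), but its groups overlapped and the call was lost in 9 of 16 alternatives.

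Cell cycle genes changed in both directions. The 4 DNA replication genes named for the smallest adjusted p all belong to the replicative helicase, which unwinds DNA at the fork, and fell. Other helicase genes were not named by that rule. MCM3 had 400.1, 434 and 418 at 15 °C and 845, 987 and 992 at 30 °C (log2 change -1.17 ± 0.08 SE, adjusted p = 3.03e-06). MCM2 (-0.94), MCM4 (-0.62) and MCM7 (-0.70) fell with it. DNA replication genes as a whole had 17 of 35 members lower and 6 higher (median -0.21, and -0.08 with the length trend removed, in which 15 fell and the 4 named helicase genes stayed lower). Histone and chromatin assembly genes fell in 11 of 18 cases, with HTB2 for histone H2B at -0.51 ± 0.10 SE. Cyclins and their inhibitors had 8 of 24 members higher and 8 lower. The G1 cyclin CLN2 had 451, 407 and 369 at 15 °C and 208, 236 and 231 at 30 °C (log2 change 0.86 ± 0.10 SE, adjusted p = 4.99e-05), the mitotic cyclin CLB2 had 354, 349 and 283 at 15 °C and 175, 149 and 165 at 30 °C (log2 change 1.01 ± 0.13 SE, adjusted p = 0.000104). WHI5, which restrains the start of the cycle, rose by 0.93 ± 0.12 SE. The falls in this list were fewer without single arrays, 4 without replicate 2 at 30 °C and 5 without replicate 1 at 30 °C or replicate 1 or 2 at 15 °C. Genes for separating daughter from mother had 6 of 15 members higher and 2 lower, and 5 and 1 with the length trend removed. The wall protein DSE2 (0.79 ± 0.17 SE) and the regulator SWI5 (0.49 ± 0.10 SE) rose.

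Stress and storage genes were mostly lower, and the 30 °C cultures were not alike in them. Msn2 and Msn4 are activators of general stress genes, and 29 of 51 listed targets fell while 0 rose (median log2 change -0.85). In log2 units around the mean of the 6 arrays, the median member lay at -0.51, -0.13 and -0.63 on the 15 °C arrays. On the 30 °C arrays it lay at 0.03, 0.90 and 0.40. Of pairs with 1 array from each temperature, replicate 1 at 30 °C and replicate 2 at 15 °C were the nearest. GPG1, proposed as a subunit of the glucose-sensing G protein, had 166, 170.0 and 162 at 15 °C and 772, 1088 and 848 at 30 °C (log2 change -2.43 ± 0.14 SE, adjusted p = 1.65e-06), with every 30 °C array far above the 15 °C arrays. HSP12, a membrane stress protein often used as a marker of this response, had 1268, 1969.8 and 588 at 15 °C and 1024, 4452 and 2759 at 30 °C, overlapped between groups and missed the threshold (log2 change -1.03 ± 0.53 SE, adjusted p = 0.117). Without replicate 1 at 30 °C it passed (log2 change -1.62, adjusted p = 0.0129). Trehalose genes fell in 9 of 10 cases, the trehalase NTH2 with 217, 248 and 220.3 at 15 °C and 856, 1064 and 967 at 30 °C (log2 change -2.07 ± 0.12 SE, adjusted p = 1.65e-06). The exception was PGM1, a phosphoglucomutase, with 449, 472 and 519 at 15 °C and 205, 204 and 219 at 30 °C (log2 change 1.20 ± 0.09 SE, adjusted p = 4.35e-06). For glycogen 11 of 17 fell, among them GAC1 (-1.97) and GIP2 (-2.04), which target a phosphatase to glycogen synthase.

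Chaperones did not move as a block. Of 43 listed heat shock proteins and chaperones 12 rose and 14 fell, and 7 and 17 without centring. SSA1 and SSA2 are near-identical cytosolic Hsp70 genes that went opposite ways. SSA1 had 1197, 1318 and 1009.7 at 15 °C and 2691, 3298 and 2838 at 30 °C (log2 change -1.33 ± 0.12 SE, adjusted p = 1.14e-05). SSA2 had 2945, 2806 and 2372 at 15 °C and 1481, 1195 and 1375 at 30 °C (log2 change 1.0 ± 0.10 SE, adjusted p = 1.5e-05). Cross-hybridisation between the copies was not tested. The disaggregases HSP104 of the cytosol (-1.15 ± 0.12 SE) and HSP78 of mitochondria (-1.24 ± 0.09 SE) fell. Proteasome genes had 22 of 38 members higher and 2 lower, and with the length trend removed 9 and 3. The core subunit PUP3 had 1646, 1749.8 and 1664 at 15 °C and 1086, 1138 and 1132 at 30 °C (log2 change 0.59 ± 0.06 SE, adjusted p = 2.08e-05), while RPN4, the transcription factor that drives proteasome genes, had 671, 654 and 539 at 15 °C and 1301, 1602 and 1359 at 30 °C (log2 change -1.19 ± 0.11 SE, adjusted p = 1.39e-05). RPN4 is no subunit but is counted in this list, as 1 of the 2 lower members.

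**Figure D4:**
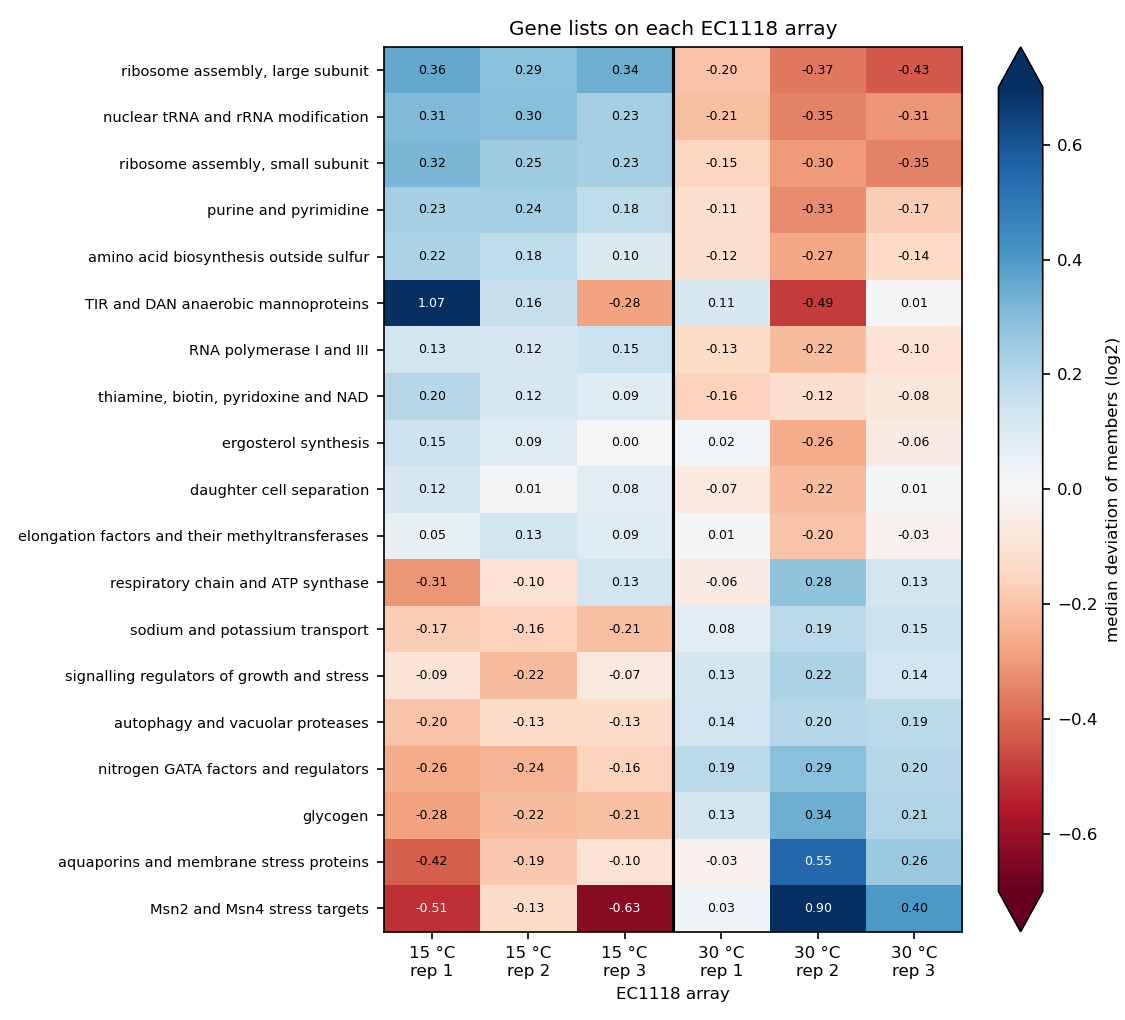
Median deviation of the members of each gene list (log2) from their own mean over the 6 EC1118 arrays, 1 column per array, for lists with at least 15 measured members and a deviation of at least 0.2 on some array. Ribosome assembly lies at 0.23 to 0.36 on the 15 °C arrays and at -0.43 to -0.15 at 30 °C, Msn2 and Msn4 targets reach 0.90 in replicate 2 at 30 °C, and anaerobic mannoproteins reach 1.07 in replicate 1 at 15 °C.

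Nitrogen was the limiting nutrient at both temperatures, and its regulators were lower at 15 °C. Of 17 GATA factors and nitrogen regulators 12 fell and 2 rose (median -0.42). GAT1, an activator of genes for poor nitrogen sources, had 816, 745 and 749 at 15 °C and 1130.5, 1277 and 1174 at 30 °C (log2 change -0.63 ± 0.07 SE, adjusted p = 5.51e-05). NPR2 (-0.85) and SEA4 (-0.71), which belong to the complex that signals amino acid supply to TORC1, fell as well. Amino acid permeases had 13 of 34 members lower and 5 higher. AGP1, with a broad range of amino acids, had 242, 288 and 196 at 15 °C and 1068, 1232 and 1109.6 at 30 °C (log2 change -2.25 ± 0.13 SE, adjusted p = 1.65e-06), the peptide carrier OPT1 fell (-1.87 ± 0.15 SE), and TAT2, for tryptophan and tyrosine, had 156, 174 and 148 at 15 °C and 50.3, 47.2 and 53.4 at 30 °C (log2 change 1.66 ± 0.14 SE, adjusted p = 5.83e-06). The ammonium permeases MEP1 (-0.68) and MEP2 (-0.37) fell, the glutamate dehydrogenase GDH1 rose (0.42 ± 0.06 SE), and GAP1, the general permease, measured -0.24 ± 0.10 SE (adjusted p = 0.0559) without overlap between groups. GAP1 passed in 6 alternatives, with an adjusted p of 0.0127 after quantile normalization and of 0.0176 on uncentred values. The long gene GLT1 for glutamate synthase, -0.41 ± 0.07 SE with centred arrays, had a log2 change of 0.13 (adjusted p = 0.128) with the length trend removed.

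Signalling genes of growth were lower, and the largest of them carried the length trend. In the list of 38 regulators 21 fell and 8 rose, 16 and 4 with the trend removed. The rises were 3 without centring, 4 without replicate 2 at 15 °C and 5 without replicate 1 at 30 °C. TOR1, a kinase of the growth-controlling TORC1, had 595, 617 and 688 at 15 °C and 1166, 1295 and 1213 at 30 °C (log2 change -0.95 ± 0.08 SE, adjusted p = 5.97e-06). With the trend removed its log2 change was -0.37 (adjusted p = 0.00548). TOR2 (-0.70) and the Ras inhibitor IRA1 (-0.79) lost their calls in that fit, with -0.13 (adjusted p = 0.182) and -0.15 (adjusted p = 0.127). IGO1, a short gene whose product protects mRNAs when nutrients run out, had 782, 813 and 749 at 15 °C and 1462, 1486 and 1435 at 30 °C (log2 change -0.90 ± 0.06 SE, adjusted p = 2.06e-06). With the trend removed its log2 change was -1.03. Autophagy and vacuolar protease genes had 22 of 41 members lower and 2 higher, the starting kinase ATG1 with 223, 218 and 191 at 15 °C and 453, 632 and 474 at 30 °C (log2 change -1.29 ± 0.12 SE, adjusted p = 1.22e-05). That list kept its direction with the trend removed, at 26 lower and 2 higher.

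Metal and phosphate genes held single large changes. Reductive iron and copper uptake had 15 of 36 members lower and 5 higher, 2 or 3 without replicate 2 or 3 at 15 °C, without replicate 1 or 3 at 30 °C, and without centring. FTR1, the iron permease of the high-affinity system, had 104, 125 and 151 at 15 °C and 452, 463 and 393 at 30 °C (log2 change -1.80 ± 0.14 SE, adjusted p = 5.29e-06). TIS11, which degrades mRNAs of iron-using proteins, had 23.4, 27.9 and 17.7 at 15 °C and 92.2, 101 and 102 at 30 °C (log2 change -2.12 ± 0.15 SE, adjusted p = 3.26e-06). The copper metallothionein CRS5 fell (-1.94 ± 0.13 SE). ENB1, a carrier of the siderophore enterobactin, had 54.9, 57.3 and 43.6 at 15 °C and 12.9, 21.1 and 19.9 at 30 °C (log2 change 1.55 ± 0.18 SE, adjusted p = 4.95e-05). Within the phosphate regulon 10 of 32 rose and 6 fell. The phosphate transporter PHO84 had 287, 277 and 262 at 15 °C and 97.9, 126 and 112 at 30 °C (log2 change 1.30 ± 0.22 SE, adjusted p = 0.000474). The phosphatase PHM8 had 51.3, 51.8 and 53.3 at 15 °C and 151, 178 and 181 at 30 °C (log2 change -1.70 ± 0.13 SE, adjusted p = 4.89e-06). VCX1, which moves calcium into the vacuole, was the 1 gene of 22 in the list of ion transport that rose, with 767, 820.3 and 814 at 15 °C and 354, 347 and 396 at 30 °C (log2 change 1.13 ± 0.08 SE, adjusted p = 3.87e-06). Another 11 members fell.

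The difference between the temperature effects of the 2 strains was tested to find where the response of EC1118 differed from that of the laboratory strain. It was called for 755 of 5763 probe sets (13.1%), 443 with a higher log2 change in EC1118 and 312 with a lower one, and 452 were called without replicate 1 of EC1118 at 15 °C. Of the 3188 probe sets called in EC1118, 2269 (71.2%) were also called in CEN.PK113-7D in the same direction, which is 68.8% of the 3297 called there, and 80 were called in opposite directions. FLO11, the cell surface flocculin, had 4547, 4657 and 4327 at 15 °C and 2798, 2223 and 2578 at 30 °C in EC1118, and 521, 562 and 562 at 15 °C and 4296, 4016 and 3657 at 30 °C in CEN.PK113-7D. It rose in EC1118 (0.84) and fell in CEN.PK113-7D (-2.86), a difference of 3.70 ± 0.13 SE, adjusted p = 7.7e-08. PHO84 also turned over, with a log2 change of 1.30 in EC1118 and -2.27 in CEN.PK113-7D, a difference of 3.57 ± 0.31 SE, adjusted p = 0.000135. INO1 had a log2 change of 1.94 ± 0.27 SE in EC1118, while it measured -0.35 ± 0.27 SE in CEN.PK113-7D (adjusted p = 0.274), a difference of 2.29 ± 0.38 SE, adjusted p = 0.00407.

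FUI1, the peptide transporter PTR2 and the proline oxidase PUT1 fell in both strains and less in EC1118, with log2 changes of -1.59, -0.74 and -1.40 in EC1118 and -4.02, -3.05 and -3.69 in CEN.PK113-7D. The EC1118 call of PTR2 was lost without any 1 of the 6 EC1118 arrays (adjusted p up to 0.0869). AQY1 and YRO2 fell in EC1118 with log2 changes of -4.43 and -3.91, beside -0.48 (adjusted p = 0.489) and -0.91 in CEN.PK113-7D. In CEN.PK113-7D AQY1 had 19.2, 33.4 and 37.4 at 15 °C and 24, 39.1 and 68.9 at 30 °C. These values lie near the floor of 10, so a fall as large as that in EC1118 could not be read there. The difference for AQY1, -3.96 ± 0.81 SE, adjusted p = 0.0107, was lost without the 3 arrays of low hybridisation controls (adjusted p = 0.0809). MF(ALPHA)1, the alpha-factor gene, had 74.7, 97.8 and 242 at 15 °C and 330.0, 355 and 384 at 30 °C in EC1118, and 535, 827 and 2425 at 15 °C and 141, 131 and 220.1 at 30 °C in CEN.PK113-7D, a difference of -4.24 ± 0.74 SE, adjusted p = 0.00503. Replicate 3 at 15 °C was the highest of its group in both strains, and the call in EC1118 (-1.56, adjusted p = 0.0258) was lost when replicate 1 or 2 at 15 °C or replicate 2 or 3 at 30 °C was left out (adjusted p = 0.0989, 0.0806, 0.0597 and 0.0659). NDT80, the master regulator of meiosis, had 19.7, 23.6 and 19.2 at 15 °C and 86, 83 and 78.9 at 30 °C in EC1118 (log2 change -1.99 ± 0.14 SE, adjusted p = 3.01e-06). Its log2 change in CEN.PK113-7D was 0.03.

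Several gene lists held many members called for the difference. The difference was called for 17 of 38 proteasome genes, beside 13.1% of all probe sets, and 17 of these were higher in EC1118, where the list's median was 0.26 against -0.09 in CEN.PK113-7D. For daughter cell separation it was called for 9 of 15, all higher in EC1118, with medians of 0.16 and -0.61. DSE2 rose in EC1118 (0.79) and fell in CEN.PK113-7D (-1.07), a difference of 1.86 ± 0.24 SE, adjusted p = 0.00119. Of 7 siderophore genes 4 were called, all higher in EC1118, with ENB1 at 2.06 ± 0.26 SE, adjusted p = 0.00105. For cell wall genes 15 of 50 were called, 14 higher in EC1118, the glucanase EXG2 among them (1.02 ± 0.11 SE, adjusted p = 0.000541). In DNA replication 9 of 35 were called, all lower in EC1118, MCM3 by -0.88 ± 0.12 SE, adjusted p = 0.00121. Ribosome assembly rose in both strains and less in EC1118, with 15 of 68 large-subunit factors called lower for the difference and medians of 0.66 in EC1118 and 0.98 in CEN.PK113-7D.

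**Figure D5:**
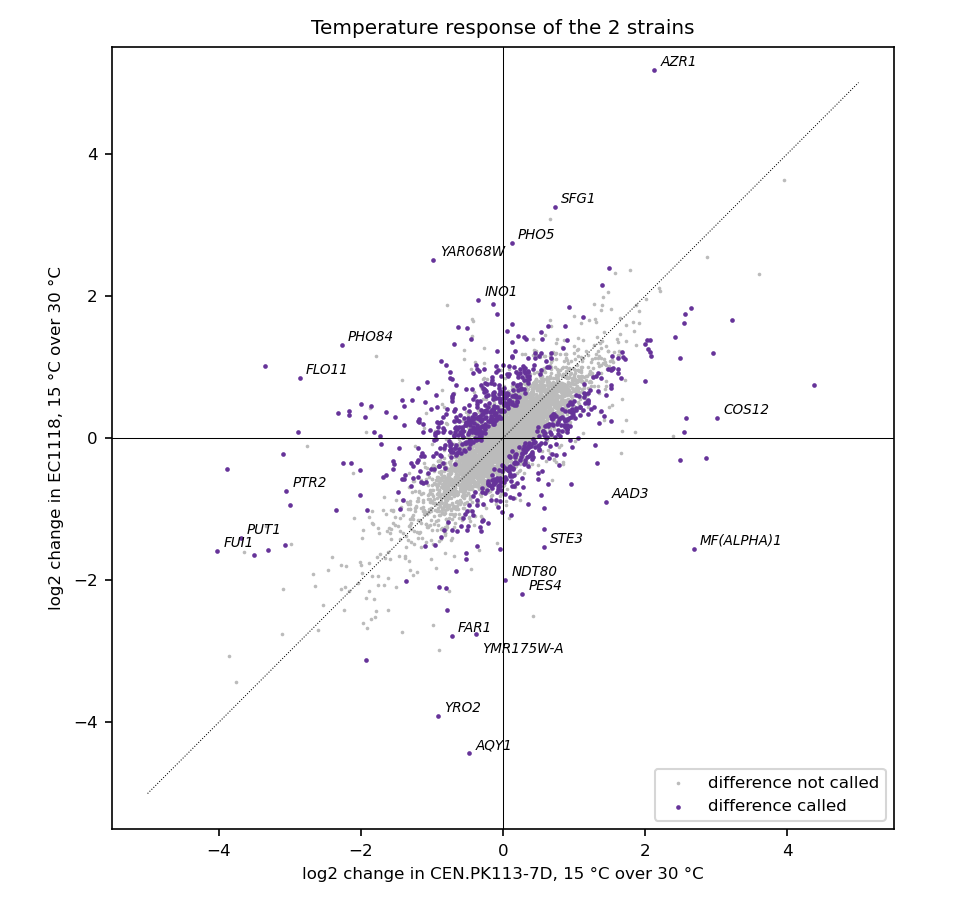
Log2 change at 15 °C over 30 °C in EC1118 (vertical axis) against that in CEN.PK113-7D (horizontal axis) for 5763 probe sets, with the 755 whose difference was called in purple, the line of equal change dotted, and the 20 genes named for the difference labelled. FLO11 and PHO84 lie above 0 in EC1118 and below 0 in CEN.PK113-7D, and MF(ALPHA)1, AAD3 and STE3 the other way round.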

How the data were processed

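Each sample was a chemostat culture hybridised to a 1-colour Affymetrix Yeast Genome 2.0 array. The deposited table gives 1 intensity per probe set and array on a linear scale with a floor of 10. How the authors summarised and normalised them was not given in the sources used here, and the deposited intensities were taken to log2 as they stood. Then each array was centred on its median over 5763 yeast probe sets, with 137 control probe sets left out. Printed intensities are those scaled values.

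All 12 arrays entered 1 limma fit (version 3.58.1, R 4.3.3, eBayes) with a mean for each strain and temperature, 8 residual and 2.96 prior degrees of freedom, and p-values are two-sided and adjusted by Benjamini-Hochberg over 5763 probe sets. Genes came from the platform annotation, with 5498 probe sets of 1 gene, 0 of several and 265 unnamed, and 12 symbols were updated from the RefSeq table of assembly R64, which also gave chromosomes and coding lengths. A script of the fit was tested on simulated data.

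Genes and lists were chosen with earlier results of these data known. Named were the 15 highest and 15 lowest log2 changes among called probe sets whose groups did not overlap and whose higher group had no array at the floor, 10 at either end of the strain difference among genes called for both, up to 4 members of a list with the smallest adjusted p, and a panel of 18 genes. Not every list member so named is printed. Panel genes called in EC1118 but not described above were NSR1 (log2 change 1.42), HSP26 (-2.125), TPS1 (-0.545) and FET3 (-0.94, with 1 array at 15 °C at the floor). A total of 4 wrongly listed genes were dropped after values were seen. A fold against a group at the floor is a lower bound.

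The replicate numbers did not pair the arrays, with correlations of deviations between equal numbers of 0.37, 0.17 and -0.11 in EC1118. Alternatives were no centring, quantile normalization, EC1118 arrays alone, a replicate block, dim probe sets left out, 50 added before the log, trended and robust eBayes, 1 probe set per gene and each EC1118 array left out. Leaving out the 3 arrays with low hybridisation controls, and removing the trend with coding length, were chosen after seeing the data. A planned description of promoter motifs was not run. Array number limits precision.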

Additional observations from a re-analysis of the deposited data

Results flagged for a closer look

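The temperature effect differed between EC1118 and CEN.PK113-7D, by the interaction term of the fit, for 20 genes named by the size of that difference. Positive differences, EC1118 over CEN.PK113-7D on the log2 scale, were 3.70 for FLO11, 3.57 for PHO84, 3.49 for YAR068W, 3.06 for AZR1, 2.62 for PHO5, 2.51 for SFG1, 2.43 for FUI1, 2.31 for PTR2, 2.29 for PUT1 and 2.29 for INO1. Negative differences were -4.24 for MF(ALPHA)1, -3.96 for AQY1, -2.99 for YRO2, -2.74 for COS12, -2.46 for PES4, -2.38 for YMR175W-A, -2.35 for AAD3, -2.11 for STE3, -2.06 for FAR1 and -2.02 for NDT80. The difference of YMR175W-A, at the floor on every 15 °C array of EC1118, was lost without replicate 1 at 15 °C (adjusted p = 0.051) and without the 3 arrays with low hybridisation controls (adjusted p = 0.12). PHO5 stood at the floor on every CEN.PK113-7D array, so no temperature response of it could be read in that strain. AZR1 stood at the floor on every 30 °C array of both strains, so its rise is a lower bound in each and its difference is uncertain in size. AAD3 stood at the floor on 2 of the 3 CEN.PK113-7D arrays at 30 °C. AQY1 was near the floor at both temperatures in CEN.PK113-7D, so the size of its difference is uncertain. COS12 of a subtelomeric family rose strongly in CEN.PK113-7D (3.01) and had 0.28 in EC1118.

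A signal outside the comparisons was found in the 5′ and 3′ control probe sets. The mean log2 ratio of 5′ over 3′ signal was 0.41 higher at 15 °C than at 30 °C in EC1118 and 0.45 higher in CEN.PK113-7D.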

How the results depend on the processing

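Leaving out 1 EC1118 array at a time gave 1476 to 1651 probe sets higher at 15 °C and 1248 to 1365 lower, against 1747 and 1441 with all arrays, and 452 to 670 called for the strain difference, against 755. The lowest of these was without replicate 1 at 15 °C. The replicate block gave 1674 higher, 1422 lower and 601 differences, and moved none of these 3 counts by over 1.5 times. Of 3 arrays at 15 °C, 1 correlated best with the 30 °C array of its own number, and the numbers were not treated as pairs. Quantile normalization gave 1662 higher and 1492 lower. Leaving out the 3 arrays with low hybridisation controls gave 1730 higher and 1426 lower, with 516 differences. Leaving out dim probe sets gave 1362 and 1169. Of 4503 values of named genes over all alternatives, 4420 stayed on their side of the threshold with no called value changing sign, 60 lost the call, 22 gained one, and 1 called value changed sign. That was GLT1, with 0.13 (adjusted p = 0.128) when the trend with coding length was removed, against -0.41, and the cause was not tested. TIR1, which was not called, had a log2 change of 0.12 without replicate 3 at 15 °C, against -0.02. Of 1984 counts of list members, 200 moved by over 1.5 times. Signal near the floor limits genes such as FAR1, whose strain difference had an adjusted p of 0.316 with a pseudocount of 50.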

Other observations

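Respiratory chain and ATP synthase genes, which anaerobic cells hardly use, fell in 13 of 42 cases (31%, beside 25% of all probe sets). They rose in 0, beside 30.3% of all probe sets. The falls were 7 without replicate 1 at 15 °C and 8 without replicate 2 or 3 at 30 °C, so they were no clear excess over all probe sets. NDE2, an external NADH dehydrogenase of mitochondria, had 82.3, 103 and 69.5 at 15 °C and 164, 373 and 271 at 30 °C (log2 change -1.60 ± 0.24 SE, adjusted p = 0.000224). HAP1, the heme-dependent regulator of aerobic genes, had 874, 726 and 693 at 15 °C and 1679.7, 1878 and 1652 at 30 °C (log2 change -1.19 ± 0.11 SE, adjusted p = 1.12e-05). In the citric acid cycle 11 of 34 genes rose and 6 fell. ODC2, a mitochondrial carrier of oxodicarboxylates, rose (1.10 ± 0.10 SE), IDP1, the mitochondrial isocitrate dehydrogenase that makes NADPH, rose (1.0 ± 0.13 SE), and MDH2, the cytosolic malate dehydrogenase, fell (-1.25 ± 0.16 SE).

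Drug transporters rose in 12 of 32 cases and fell in 10. QDR2, an exporter known for quinidine resistance, had 691, 719 and 739 at 15 °C and 232, 157 and 240.5 at 30 °C (log2 change 1.80 ± 0.15 SE, adjusted p = 6.61e-06). Genes of meiosis and sporulation were called about as often in both directions, 9 higher and 9 lower of 52, and 1 and 3 with dim probe sets left out. SPS1, a kinase of spore wall formation, had 74.1, 69.3 and 67.5 at 15 °C and 28.7, 24.9 and 26.8 at 30 °C (log2 change 1.39 ± 0.12 SE, adjusted p = 8.24e-06) and fell in CEN.PK113-7D (-0.45), a difference of 1.84 ± 0.17 SE, adjusted p = 0.000209. PEX18, which imports a class of peroxisomal proteins, had 27.4, 36.5 and 27.2 at 15 °C and 67.3, 136 and 77.3 at 30 °C (log2 change -1.57 ± 0.23 SE, adjusted p = 0.000188). MFA2, an a-factor gene that is low in EC1118, had 187, 226 and 299.8 at 15 °C and 61.1, 64.8 and 63.2 at 30 °C (log2 change 1.89 ± 0.14 SE, adjusted p = 3.87e-06), with all 15 °C arrays above all 30 °C arrays.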
